A study of Mus musculus with 6 samples.

Results

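Retinoic acid is made from vitamin A in 2 oxidation steps and is destroyed by its own set of enzymes, and 9 mouse genes of that route are described here: the retinol and retinal oxidoreductases Rdh10 and Dhrs3, the retinal dehydrogenases Aldh1a1, Aldh1a2 and Aldh1a3, the binding proteins Rbp4 and Crabp2, and the retinoic acid hydroxylases Cyp26a1 and Cyp26b1. They were picked by gene symbol, without reference to a threshold on the counts, but with earlier results of these data known. All 9 were found among the 55401 gene IDs of the count tables, and all 9 were among the 15334 genes with enough reads to be tested.

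The study sequenced polyA RNA of primary mouse cholangiocytes, the epithelium of the bile ducts, from WT mice and from mice with polycystic liver disease (PLD), a disorder in which the ducts give rise to fluid-filled cysts. Each group had 3 libraries, and in both groups the cells came from mice taken 3 months after induction with tamoxifen. The cells were released from the digested biliary tree and picked with magnetic beads carrying an antibody to EpCAM, an epithelial surface protein. The gene altered in the PLD mice, the promoter that drives the tamoxifen-inducible step, and the strain, sex and age of the mice are not stated by the labels. Nor do they state that the 3 libraries of a group came from separate mice, so the p-values measure the spread between these libraries, which may be technical.

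The library totals ran from 15768561 to 16710548 reads assigned to genes, and 3 reads corresponded to 0.177 to 0.207 CPM (reads of a gene per 1000000 reads of its library), the unit used below after scaling with trimmed mean of M values (TMM) factors. Of the genes tested, 8493 (55.4%) differed between PLD and WT at an adjusted p under 0.05 in edgeR's quasi-likelihood test, 4136 (27.0%) being higher and 4357 (28.4%) lower. The labelled cell type was checked against its markers. Of 15 cholangiocyte markers 13 were higher in PLD, with a summed level of 9495 to 13852 CPM in the WT libraries and 32792 to 45521 CPM in the PLD libraries. All 12 endothelial markers were lower in PLD, from 6122 to 7777 CPM down to 379 to 714 CPM, as were 11 of 13 stellate cell and fibroblast markers, from 8307 to 13623 CPM down to 1794 to 4802 CPM. The 1 cholangiocyte marker that fell was Sctr, the secretin receptor, at 37, 40 and 34 reads in WT against 0, 1 and 4 in PLD. The mesothelial markers Muc16 and Bnc1 were likewise at 0 reads in PLD replicate 1, and no other marker was at 0 in any library (Sctr, Muc16 and Bnc1 are named after their values were seen). These are bulk libraries, so fewer cells of a type and less RNA per cell cannot be told apart, and the part that the mixture of cells has in any difference below was not tested.

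Retinol reaches cells in the blood bound to the RBP4 protein. Inside the cell it is oxidised to retinal, which DHRS3 can turn back to retinol, and retinal is then oxidised irreversibly to retinoic acid, the ligand of nuclear receptors (RAR and RXR) that regulate transcription. CRABP2 carries retinoic acid to the nucleus, and CYP26 enzymes hydroxylate it for disposal, which keeps its level local and short-lived. In the liver the stellate cells are the main store of vitamin A, and hepatocytes are the main source of circulating RBP4.

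The promoters of the 2 Cyp26 genes are printed because Cyp26a1 and Cyp26b1 moved in opposite directions in these libraries and because Cyp26a1 is a textbook target of retinoic acid itself. Both sequences are from RefSeq, build GRCm38.p6 (mm10), on the strand of the gene, 5′ to 3′, and end before the transcribed region of the files' annotation. Capitals mark the half-sites of a direct repeat, the arrangement that RAR and RXR pairs are known to bind. The Cyp26a1 window is chr19:37697558-37697797 on the plus strand and the Cyp26b1 window is chr6:84593909-84594060 on the minus strand.
Cyp26a1: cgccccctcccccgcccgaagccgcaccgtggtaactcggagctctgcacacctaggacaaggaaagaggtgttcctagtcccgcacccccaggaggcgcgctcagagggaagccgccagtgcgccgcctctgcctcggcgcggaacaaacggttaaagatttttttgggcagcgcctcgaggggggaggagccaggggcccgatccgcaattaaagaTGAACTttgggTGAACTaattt
Cyp26b1: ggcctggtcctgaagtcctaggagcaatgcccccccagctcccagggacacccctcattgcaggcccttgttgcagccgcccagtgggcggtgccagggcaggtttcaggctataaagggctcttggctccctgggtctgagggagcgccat

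The search was for 2 half-sites, each AGGTCA or AGTTCA, in the same direction with 5 or with 2 bases between them, on both strands, in the 250 bases before each RefSeq start. RefSeq promoters were matched for 6 members (Aldh1a1, Aldh1a2, Dhrs3, Rbp4, Cyp26a1 and Cyp26b1). Cyp26a1 held a repeat with 5 bases between, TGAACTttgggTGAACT at chr19:37697776-37697792, which reads AGTTCA on the minus strand and lies 32 to 16 bases before the RefSeq start. Such a repeat was found in 11 of 32851 promoter windows (0.0335%), and one with 2 bases between in 12 windows (0.0365%). The windows of the other 5 matched members held neither a repeat nor a single half-site, whereas 24.2% of all windows held at least 1 half-site. The match is a description of the letters in this window.

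Of the 9 members, 4 rose in PLD (Aldh1a1, Aldh1a2, Rdh10 and Cyp26a1), 4 fell (Aldh1a3, Dhrs3, Rbp4 and Cyp26b1) and Crabp2 did not pass the test. The members lie beside a background in which 55.4% of all tested genes passed, and their median log2 fold change was -0.21 against 0.01 over all genes. The WT and PLD libraries did not overlap for 8 members, and the same held for 10145 genes (66.2%) of those tested, 33.0% standing higher in PLD and 33.2% lower; of the members 4 stood higher and 4 lower. Members of every step moved in both directions, apart from the binding proteins.

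**Figure D1:**
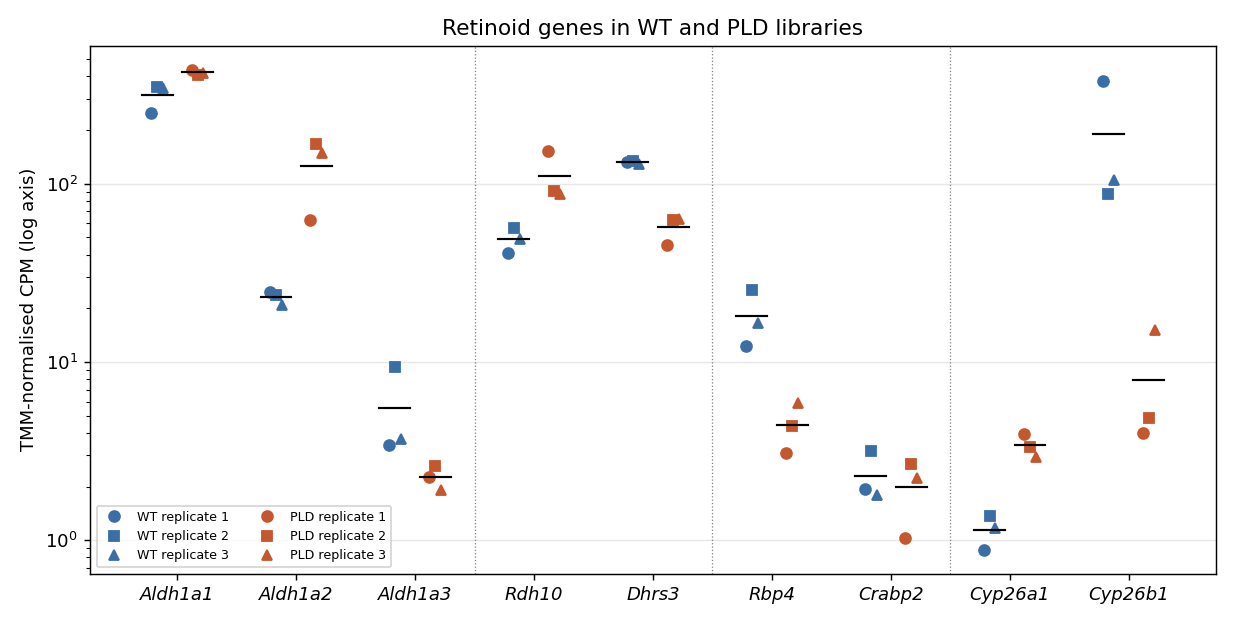
TMM-normalised CPM on a log axis for the 9 genes, with 1 point per library (3 WT and 3 PLD) and group means as black lines. Aldh1a2 and Rdh10 stand higher in the PLD libraries, Cyp26b1 spans from 3.99 to 379 CPM, and the points of the 2 groups mix for Crabp2.

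Rdh10 encodes the retinol dehydrogenase that carries out the first oxidation, from retinol to retinal. The gene (ENSMUSG00000025921.7, mm10 chr1:16105774-16133734, plus strand) was at 40.9, 56.8 and 48.9 CPM in the 3 WT libraries and at 152, 90.7 and 87.5 CPM in the 3 PLD libraries. Every PLD library lay above every WT library, and PLD replicate 1 was the highest. The difference was 2.25-fold (log2 fold change 1.17, SE 0.23, edgeR quasi-likelihood adjusted p = 0.00424), and without PLD replicate 1 it was 0.87 on the log2 scale. PLD replicate 1 was also the highest for Epcam, at 1363 CPM against 973 and 919 CPM in the other PLD libraries; the part of this in the Rdh10 value was not tested.

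Dhrs3 encodes the reductase that works against Rdh10 and returns retinal to retinol, and its transcription is itself known to respond to retinoic acid. It (ENSMUSG00000066026.14, chr4:144892827-144928209, plus strand) was at 133, 134 and 129 CPM in WT and at 45.4, 62.6 and 63.1 CPM in PLD. The WT libraries lay close together and all PLD libraries were below them. Dhrs3 was 2.31-fold lower in PLD (log2 fold change -1.21, SE 0.14, edgeR adjusted p = 3.82e-04).

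The balance of the 2 transcripts per kilobase of exon, which does not depend on the library total, moved from mostly Dhrs3 in WT to mostly Rdh10 in PLD replicate 1 and to near equal levels in PLD replicates 2 and 3. Rdh10 made up 17.8%, 23.0% and 21.1% of the summed Rdh10 and Dhrs3 reads per kilobase in WT and 70.2%, 50.5% and 49.4% in PLD. The means were 20.7% ± 2.64 in WT and 56.7% ± 11.7 in PLD (SD, n = 3), with no overlap. Their summed level changed less, from 56.7 ± 2.26 to 46.0 ± 5.29 CPM per kilobase.

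The second oxidation, from retinal to retinoic acid, is carried out by the 3 Aldh1a enzymes. Aldh1a1 (ENSMUSG00000053279.8, chr19:20492715-20643465, plus strand) had the highest mean per length of the 9 members in both groups, at 63.4 ± 11.2 CPM per kilobase in WT and 85.3 ± 2.65 in PLD (SD, n = 3). In WT replicate 1, however, Cyp26b1 was above it, at 70.8 against 50.4 CPM per kilobase. The CPM values of Aldh1a1 were 249, 347 and 343 in WT and 435, 409.7 and 418 in PLD, so that all PLD libraries stood above the WT libraries by a narrow margin. The rise was 1.35-fold (log2 fold change 0.43, SE 0.15, edgeR adjusted p = 0.0385). It did not pass the threshold in 5 of the 6 fits that left out 1 library, with log2 fold changes of 0.29 to 0.50 and edgeR adjusted p from 0.0571 to 0.0822 in those 5.

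Aldh1a2, known as the main retinoic acid-making enzyme of embryonic mesoderm and of mesothelium, rose by more. It (ENSMUSG00000013584.5, chr9:71215789-71296243, plus strand) was at 24.8, 23.7 and 20.9 CPM in WT and at 62.6, 166 and 148 CPM in PLD. The WT libraries were alike, all PLD libraries were higher, and PLD replicate 1 was the lowest of them. The difference was 5.42-fold (log2 fold change 2.44, SE 0.34, edgeR adjusted p = 8.46e-04).

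Aldh1a3 was the least abundant of the 3. It (ENSMUSG00000015134.15, chr7:66390890-66427517, minus strand) was at 3.42, 9.43 and 3.71 CPM in WT and at 2.27, 2.62 and 1.92 CPM in PLD. It was 2.43-fold lower in PLD (log2 fold change -1.28, SE 0.43, edgeR adjusted p = 0.0357), and WT replicate 2 set much of that size. Without that library the log2 fold change was -0.65 and edgeR's adjusted p = 0.0984, and the call was also lost without any 1 of the 3 PLD libraries (adjusted p = 0.0671, 0.0745 and 0.105). With limma-voom the adjusted p was 0.0631.

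Aldh1a7, which is no member but a close copy of Aldh1a1 on the same chromosome (chr19:20692953-20727562), was lower in PLD, at 7.61 ± 2.98 CPM against 13.5 ± 1.09 in WT (SD, n = 3), with a log2 fold change of -0.83 (SE 0.26, edgeR adjusted p = 0.0297). Without any 1 library other than PLD replicate 1 its call was lost (edgeR adjusted p from 0.0593 to 0.105). Reads that fit both copies could have been shared or dropped in the counting, so the levels of both are uncertain to that extent.

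Per length, the make-up of the 3 Aldh1a transcripts shifted toward Aldh1a2. Aldh1a2 held 17.7%, 12.6% and 11.6% of their summed reads per kilobase in WT and 23.8%, 46.7% and 43.4% in PLD. Its mean share was 14.0% ± 3.23 in WT and 38.0% ± 12.4 in PLD (SD, n = 3), a difference of 24.0 percentage points. Aldh1a1 fell by 22.8 points, from 84.5% ± 3.13 to 61.7% ± 12.3, although its own level was higher, and Aldh1a3 went from 1.56% to 0.354%. Each of these 3 differences had p = 0.1 in a two-sided exact permutation test, unadjusted, which is the smallest p that 3 against 3 libraries can give. The summed level of the 3 transcripts was 62.2, 82.8 and 79.4 CPM per kilobase in WT and 116, 157 and 150.3 in PLD.

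**Figure D2:**
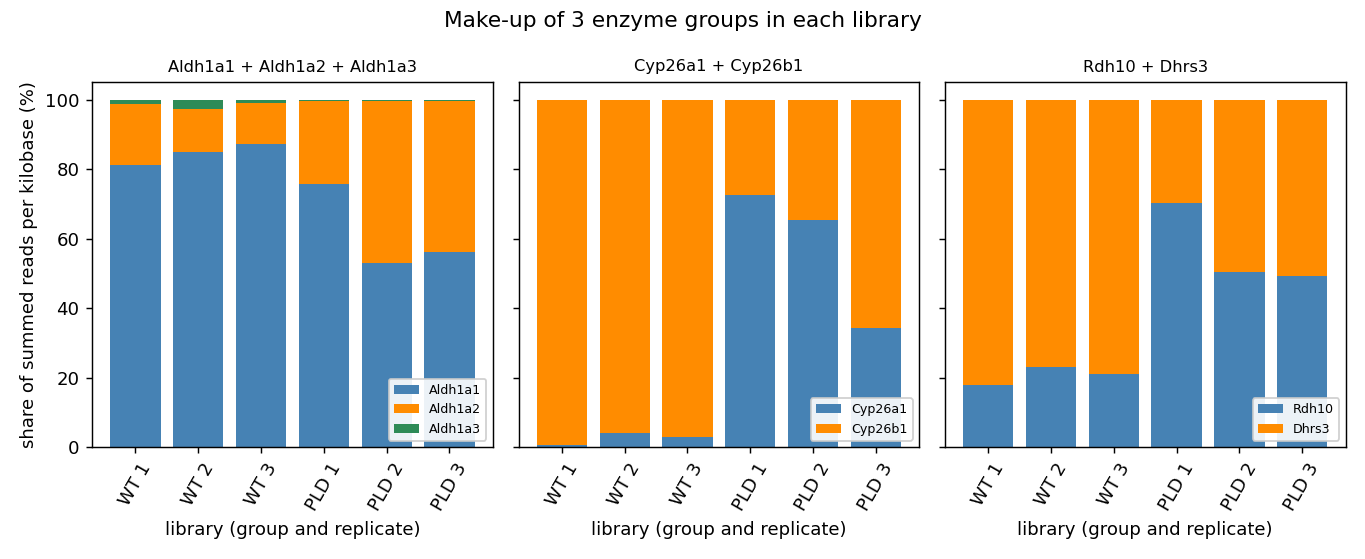
Share of summed reads per kilobase (%) in each of the 6 libraries for the 3 Aldh1a transcripts, for Rdh10 with Dhrs3, and for Cyp26a1 with Cyp26b1. Aldh1a2 reaches 46.7% in PLD replicate 2, Rdh10 lies between 49.4% and 70.2% in the PLD libraries, and Cyp26a1 stays at or below 3.99% in the WT libraries.

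Of the binding proteins, Rbp4, the carrier of retinol in plasma, fell. It (ENSMUSG00000024990.13, chr19:38116629-38125281, minus strand) was at 12.3, 25.3 and 16.6 CPM in WT and at 3.1, 4.39 and 5.88 CPM in PLD, with every PLD library below every WT library. It was 4.03-fold lower (log2 fold change -2.01, SE 0.33, edgeR adjusted p = 0.00177). Hepatocyte markers did not move as one group: 7 of 12 fell and none rose, while the most abundant, Alb, was at 1085, 1752 and 1888 CPM in WT and 1303, 5089.7 and 5512 CPM in PLD (edgeR adjusted p = 0.0537). The part of hepatocyte RNA in the Rbp4 value was not tested.

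Crabp2, the carrier of retinoic acid inside the cell, was low in both groups and did not pass the test. It (ENSMUSG00000004885.5, chr3:87948666-87953376, plus strand) was at 1.95, 3.18 and 1.79 CPM in WT and at 1.03, 2.68 and 2.22 CPM in PLD, so that the groups overlapped. The log2 fold change was -0.21 with an SE of 0.41 (edgeR adjusted p = 0.674), and its sign turned to 0.09 without PLD replicate 1 and without WT replicate 2.

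The 2 hydroxylases that break down retinoic acid moved in opposite directions. Cyp26b1 (ENSMUSG00000063415.12, chr6:84571414-84593908, minus strand) was at 379, 88.0 and 105 CPM in WT and at 3.99, 4.82 and 15.1 CPM in PLD. These are 6426, 1493 and 1694 reads against 58, 79 and 252. All WT libraries were above all PLD libraries, with WT replicate 1 standing far above the other WT libraries and PLD replicate 3 above the other PLD libraries.

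Cyp26b1 was 23.7-fold lower in PLD, the largest difference among the 9 members (log2 fold change -4.57, SE 0.76, edgeR adjusted p = 0.00194). Its size depended on single libraries. Without WT replicate 1 the gene was 12.0-fold lower (log2 fold change -3.58), and without PLD replicate 3 it was 42.5-fold lower (log2 fold change -5.41), with the call kept in every fit that left out 1 library.

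Cyp26a1 (ENSMUSG00000024987.6, chr19:37697798-37701536, plus strand) rose from a low level. It was at 0.885, 1.36 and 1.17 CPM in WT (15, 23 and 19 reads) and at 3.93, 3.35 and 2.94 CPM in PLD (57, 55 and 49 reads). The 3 libraries of each group lay close together and the groups did not overlap. The difference was 2.98-fold (log2 fold change 1.57, SE 0.28, edgeR adjusted p = 0.00237).

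Together the 2 hydroxylases went from a pool that was almost all Cyp26b1 to a smaller, mixed one. Cyp26a1 made up 0.626%, 3.99% and 2.94% of their summed reads per kilobase in WT and 72.6%, 65.3% and 34.4% in PLD, with the lowest share in PLD replicate 3, the PLD library with the most Cyp26b1. The sum was 71.3, 17.1 and 20.1 CPM per kilobase in WT and 2.73, 2.59 and 4.31 in PLD. The rise of Cyp26a1, from 0.574 ± 0.12 to 1.72 ± 0.249 CPM per kilobase, was small beside the fall of Cyp26b1, from 35.6 ± 30.5 to 1.49 ± 1.16 (SD, n = 3).

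In order of mean level per length, WT had Aldh1a1 at the top (63.4 ± 11.2 CPM per kilobase), then Dhrs3 (45.0 ± 0.907), Cyp26b1 (35.6 ± 30.5), Rbp4 (13.4 ± 4.94), Rdh10 (11.7 ± 1.92) and Aldh1a2 (10.2 ± 0.9). Crabp2 (1.75 ± 0.577), Aldh1a3 (1.2 ± 0.735) and Cyp26a1 (0.574 ± 0.12) came last. The order did not hold in each library, since Cyp26b1 (70.8) stood above Aldh1a1 (50.4) in WT replicate 1. The means of Aldh1a1 and Cyp26b1 also differed by less than the SD of Cyp26b1. Neighbours in this order whose means differed by less than the larger of their SDs were Dhrs3 and Cyp26b1, Cyp26b1 and Rbp4, Rbp4 and Rdh10, Rdh10 and Aldh1a2, Crabp2 and Aldh1a3, and Aldh1a3 and Cyp26a1. In PLD the order was Aldh1a1 (85.3 ± 2.65), Aldh1a2 (55.4 ± 24.3), Rdh10 (26.5 ± 8.74), Dhrs3 (19.5 ± 3.45), Rbp4 (3.32 ± 1.04), Cyp26a1 (1.72 ± 0.249), Crabp2 (1.5 ± 0.644), Cyp26b1 (1.49 ± 1.16) and Aldh1a3 (0.492 ± 0.076). By the same measure Rdh10 and Dhrs3 were not separated in PLD, nor were the neighbours from Cyp26a1 through Crabp2 and Cyp26b1 to Aldh1a3.

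Because the cholangiocyte markers differed between the groups, each member was also expressed per 100 reads of Epcam, the gene of the bead selection. Epcam itself was at 394, 254 and 417 CPM in WT and at 1363, 973 and 919 CPM in PLD (log2 fold change 1.61, SE 0.24, edgeR adjusted p = 0.00107). On that scale no member was higher in PLD without overlap, 6 were lower without overlap and 3 overlapped. Dividing by a transcript that rose lowers nearly every gene, and over the other 15333 tested genes 1.94% were higher and 89.0% lower without overlap on this scale, so the members' counts are a description of the scale and nothing particular to them.

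Aldh1a1 went from 94.0 ± 38.1 to 39.8 ± 7.04 per 100 Epcam reads (SD, n = 3), lower in all 3 PLD libraries (log2 difference -1.18). Aldh1a2 was at 6.3, 9.33 and 5.01 in WT and at 4.59, 17.0 and 16.1 in PLD, where PLD replicate 1 fell below all WT libraries and the other 2 stood above them (two-sided exact permutation p = 0.4). Rdh10 went from 14.8 ± 6.57 to 10.0 ± 1.0 (exact permutation p = 0.2) and Cyp26a1 from 0.347 ± 0.165 to 0.318 ± 0.0285 (exact permutation p = 1.0). Aldh1a2, Rdh10 and Cyp26a1 were thus the 3 members whose groups overlapped on this scale.

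For the remaining members the values per Epcam read were lower than the CPM differences, as the rise of Epcam alone makes them. Cyp26b1 went from 52.0 ± 38.6 to 0.812 ± 0.73 per 100 Epcam reads (log2 difference -6.14), Rbp4 from 5.68 to 0.44 (-3.62), Dhrs3 from 39.0 to 5.55 (-2.84) and Aldh1a3 from 1.82 to 0.215 (-2.75). Crabp2, which overlapped in CPM, went from 0.726 to 0.198 (-1.91). For these 5 and Aldh1a1 the exact permutation p was 0.1, the smallest the design allows, in 9 comparisons without adjustment.

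Against Krt19, a second cholangiocyte marker that rose more than Epcam (log2 fold change 3.26), all 9 members were lower without overlap, as were 97.4% of all other tested genes, with 0.333% higher. Against Krt8 6 members were lower and 3 overlapped, beside 85.1% of all other tested genes lower and 2.30% higher.

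**Figure D3:**
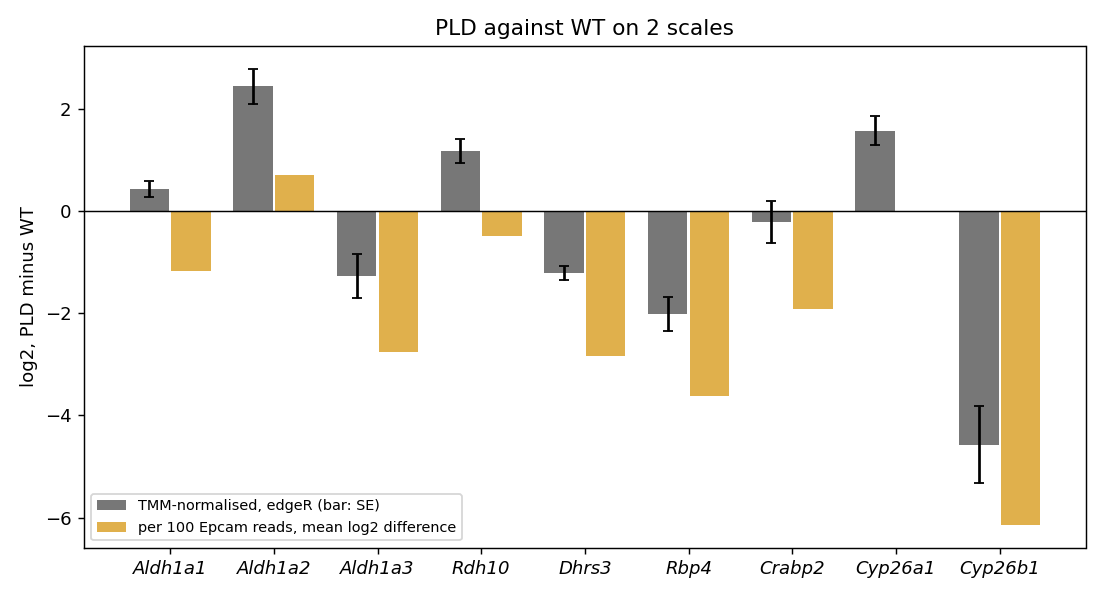
Log2 difference, PLD minus WT, for each of the 9 genes on 2 scales, the edgeR fit over all reads (error bars are its SE) and the mean difference in reads per 100 Epcam reads. Cyp26b1 is the lowest on both (-4.57 and -6.14), and Aldh1a1 is above 0 in the edgeR fit (0.43) and below 0 per Epcam read (-1.18).

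Markers of other cell types moved along with several members and are given here as measured. Cyp26b1 and Aldh1a2 are both known from non-epithelial liver cells, and the libraries were compared marker by marker. For Aldh1a2, the library with the lowest PLD value, replicate 1, was also the lowest PLD library for the fibroblast collagen Col1a1 (154, 645 and 806 CPM, against 1045, 1917 and 1712 CPM in WT) and for the mesothelial marker Upk3b (0.827, 4.33 and 4.08 CPM, against 6.14, 7.67 and 10.3 CPM in WT). Every PLD library was below every WT library for Col1a1 and Upk3b, whereas all were above for Aldh1a2. All were also above for the mesothelial markers Msln (1156, 909 and 738 CPM in PLD) and Upk1b. Of the mesothelial markers, Msln, Upk1b and Lrrn4 were not lowest in PLD replicate 1, and the others were. PLD replicate 1 was also the lowest PLD library for the hepatocyte marker Alb and the endothelial marker Pecam1, but the highest for Epcam. A low value there was thus not particular to fibroblast or mesothelial markers. Upk3b did not pass the test (edgeR adjusted p = 0.0526), and Col1a1 passed narrowly (log2 fold change -1.54, edgeR adjusted p = 0.0435) but not without PLD replicate 2, WT replicate 2 or WT replicate 3 (adjusted p from 0.0873 to 0.111).

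Of 9 mesothelial markers, 8 were tested, 5 fell and 2 rose. The mesothelial transcription factor Wt1 fell (log2 fold change -2.75) and Msln, which encodes mesothelin, rose (log2 fold change 5.77), so that the summed level went up from 127 to 175 CPM in WT to 778 to 1181 CPM in PLD. The part of mesothelial RNA in the Aldh1a2 value was not tested.

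For Cyp26b1, the stellate cell marker Reln was at 111, 303 and 208 CPM in WT and at 11.0, 17.9 and 23.5 CPM in PLD (log2 fold change -3.56), and the endothelial marker Pecam1 went from 937 ± 129 to 77.9 ± 16.8 CPM (log2 fold change -3.59). Lrat, the retinol-esterifying enzyme of stellate cells, was at 63.1, 49.2 and 41.5 CPM in WT and at 5.79, 11.0 and 23.0 CPM in PLD. PLD replicate 3 was the highest PLD library for Cyp26b1, Reln, Lrat and Pecam1 alike. WT replicate 1, the highest for Cyp26b1, was the lowest WT library for Reln and for Pecam1 and the highest for Lrat. The part of stellate or endothelial RNA in the Cyp26b1 value was not tested.

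**Figure D4:**
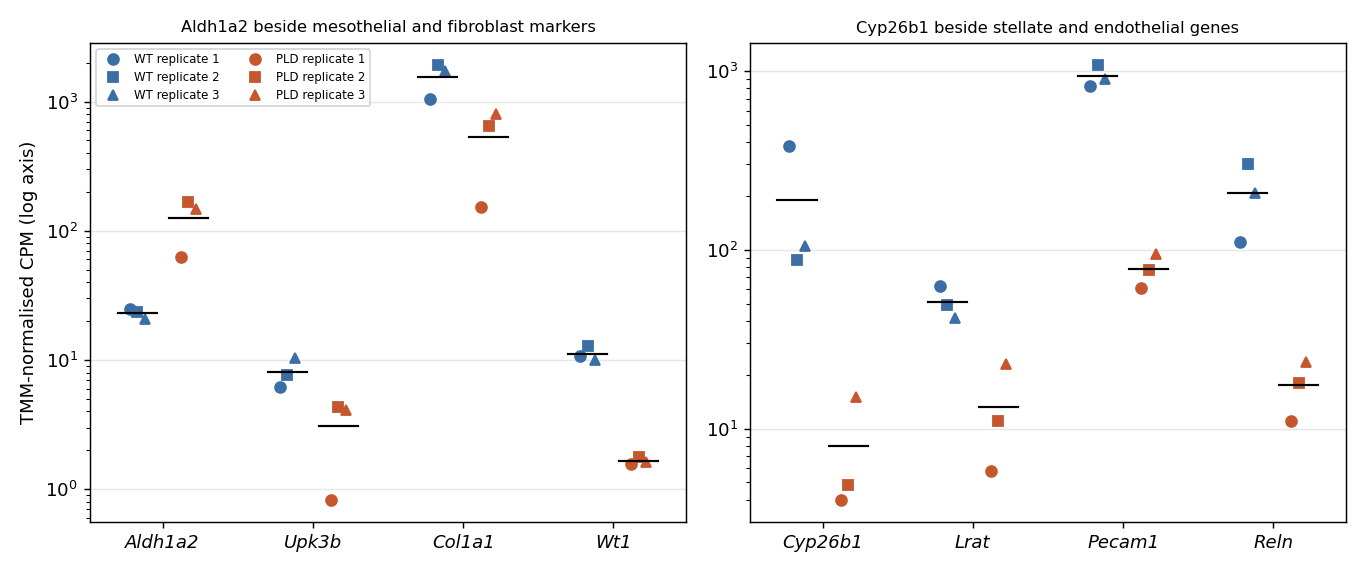
TMM-normalised CPM on a log axis per library, with Aldh1a2 beside mesothelial and fibroblast markers on the left and Cyp26b1 beside stellate and endothelial genes on the right. Black lines are group means. Aldh1a2 lies higher in PLD while Upk3b and Col1a1 lie lower, though Upk3b did not pass the test (edgeR adjusted p = 0.0526). The mesothelial markers Msln and Upk1b, which are not drawn, were higher in PLD. Cyp26b1 lies lower along with Reln, Lrat and Pecam1 but has its highest WT value, 379 CPM, in the library where Reln is lowest (111 CPM).

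Around the 9 genes, 61 other genes of the retinoid route were listed by role, of which 45 were tested. Of these, 10 were higher in PLD, 17 were lower and 18 did not pass, beside 27.0% higher and 28.4% lower over all tested genes. Their median log2 fold change was -0.22, against 0.01 over all tested genes. The counts by role below stand beside the same shares. Among 5 tested genes of uptake, transport and binding 2 rose and 1 fell. Transthyretin (Ttr), which holds RBP4 in the blood, was at 128 ± 5.31 CPM in WT and 206 ± 18.4 CPM in PLD and so rose, opposite to Rbp4 (log2 fold change 0.69, SE 0.10, edgeR adjusted p = 0.00122). Fabp5, which carries retinoic acid along a route alternative to Crabp2, fell by 1.58 on the log2 scale, from 19.3 to 6.45 CPM (edgeR adjusted p = 0.00104).

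Of 13 tested oxidoreductases other than the members, 4 rose and 3 fell. The highest of the named risers was Dhrs9, a retinol dehydrogenase of epithelia, with a log2 fold change of 1.73 from 1.2 to 4.0 CPM (SE 0.40, edgeR adjusted p = 0.0082), with Adh5 (0.64) and Dhrs4 (0.59) rising by less. Dhrs4 did not pass with a length correction (log2 fold change 0.34, edgeR adjusted p = 0.054). Adh1, an alcohol dehydrogenase that also oxidises retinol, fell (log2 fold change -0.91, edgeR adjusted p = 0.025), but did not pass without PLD replicate 2, PLD replicate 3 or WT replicate 2 (edgeR adjusted p from 0.0834 to 0.0911). Like Rdh10 and Dhrs3, then, genes of this step were called in both directions.

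Of 9 tested genes of retinyl ester and carotenoid handling, 3 fell and none rose. The lipid and carotenoid uptake receptors Cd36 and Scarb1 fell, Cd36 with a log2 fold change of -3.73, from 323 ± 50.4 to 24.2 ± 10.3 CPM (SE 0.34, edgeR adjusted p = 1.52e-04). Cd36 is also abundant in endothelial cells, whose markers all fell. The part of endothelial RNA in the Cd36 value was not tested. Lrat fell with a log2 fold change of -1.94 (SE 0.44, edgeR adjusted p = 0.00725).

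The 2 other retinoic acid hydroxylases listed, Cyp26c1 and Cyp2c39, had too few reads to be tested. Of the hydroxylases listed, Cyp26a1 and Cyp26b1 were thus those with enough reads to be tested, and other enzymes of this step were not looked up.

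Among 8 receptor and corepressor genes, 1 rose and 4 fell. Rxra, the shared partner of many nuclear receptors, was at 149 ± 8.91 CPM in WT and fell to 80.0 ± 3.34 CPM in PLD, a log2 fold change of -0.89 (SE 0.09, edgeR adjusted p = 2.54e-04). Rarb was at 12.1, 9.02 and 11.8 CPM in WT and at 3.58, 4.03 and 4.62 CPM in PLD (log2 fold change -1.42, SE 0.20, edgeR adjusted p = 8.37e-04), all PLD libraries being lower. Rxrg fell from a low level, 57, 18 and 21 reads in WT against 3, 7 and 1 in PLD (log2 fold change -3.00, SE 0.70, edgeR adjusted p = 0.0082). Rara (log2 fold change -0.03, edgeR adjusted p = 0.849) and Rarg (-0.22, edgeR adjusted p = 0.114) did not pass. The remaining calls of this group were small, with Rxrb higher (0.26, edgeR adjusted p = 0.0416) and the corepressor Ncor1 lower (-0.32, edgeR adjusted p = 0.0376). Both were lost in 5 of the 6 fits that left out 1 library, all except the one without PLD replicate 1, and with no filter on low counts (edgeR adjusted p = 0.113 for Rxrb and 0.0888 for Ncor1). Rxrb was also lost with the replicate number as a block (0.0764), and Ncor1 with a length correction (0.995).

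Of 16 genes listed as textbook targets of retinoic acid, 11 were tested, 7 fell and 3 rose. Their median log2 fold change was -1.13, against 0.01 over all tested genes. Rarb belongs to this list as well as to the receptors. The homeobox genes Meis1 (-1.43), Meis2 (-1.13) and Hoxa5 (-1.30) fell, as did Rarres2 (-0.60), each with an edgeR adjusted p of 0.0027 or less. The 3 that rose, named here after their values were seen, were Nrip1 (0.63), Bhlhe40 (0.58) and Foxa1 (0.57). Their edgeR adjusted p ran from 0.00417 to 0.0231. The summed level of the list was 2006 to 2085 CPM in WT and 2251 to 2327 CPM in PLD. Most of that sum came from Tgm2 (mean 899 CPM in WT and 793 in PLD) and Bhlhe40 (722 and 1083), so it says little about the other targets. Tgm2, which did not pass the test, is also named after its values were seen. Cyp26a1 and Dhrs3, both members and both known as targets too, went in opposite directions. The endothelial, stellate and fibroblast markers that fell are given above, and their part in these values was not tested.

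**Figure D5:**
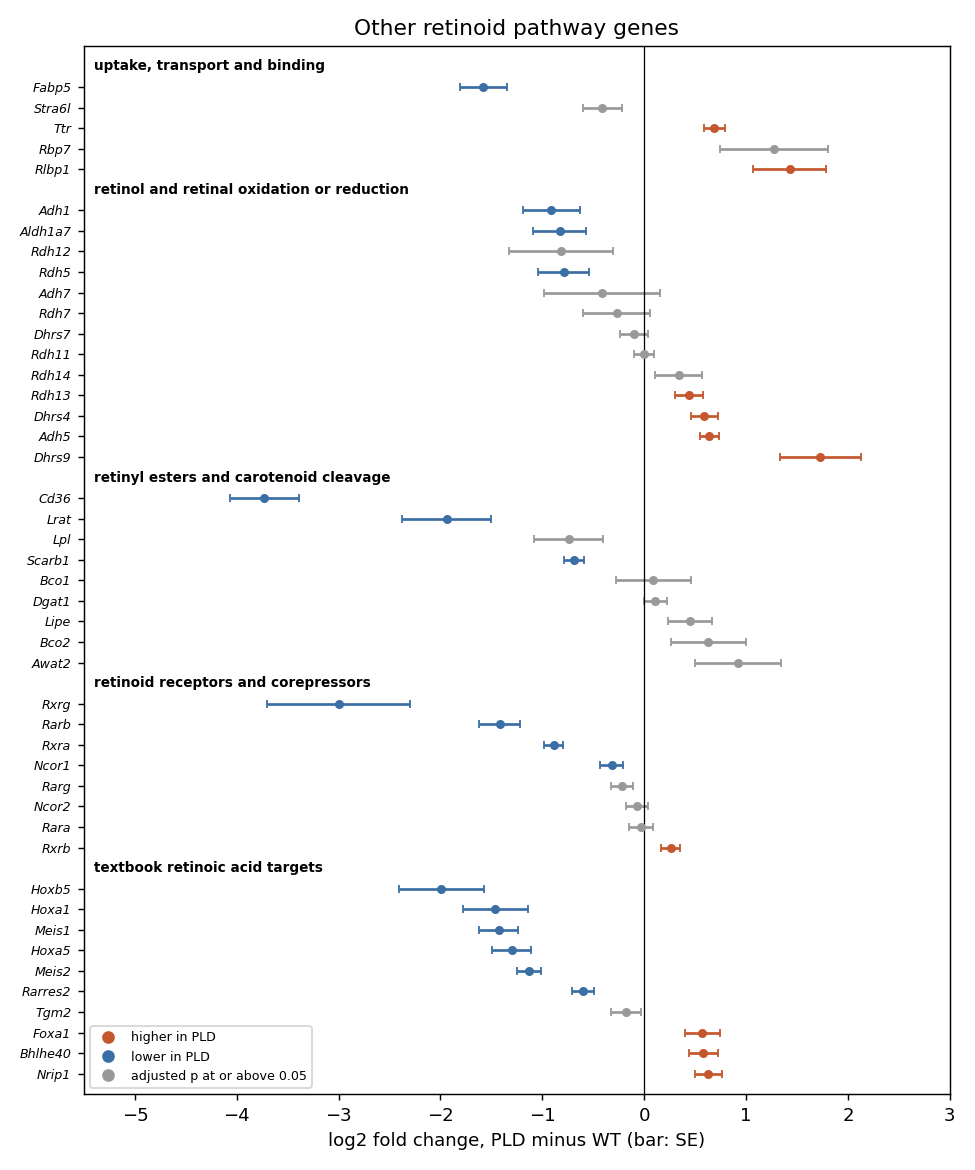
Log2 fold change, PLD minus WT, with its SE as a bar, for the 45 tested genes of the retinoid route other than the 9 members, grouped by role, with Rarb under the receptors and genes at an adjusted p of 0.05 or more in grey. Dhrs9 (1.73) stands at the upper end and Cd36 (-3.73) and Rxrg (-3.00) at the lower end.

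For each member the 3 other tested genes with the most similar profile were found by Pearson's r of log2 CPM over the 6 libraries, a description with no test over points that share the same 2 groups and the same libraries. The closest to Aldh1a2 were Pepd (r = 0.999), Fbxo25 and Phldb3, to Rdh10 Usp39, Rpl7l1 and Utp14a, and to Cyp26a1 Cct2, Prkrip1 and Cct5. The closest to Dhrs3 were Gm17334, Nxn and Spry1, to Rbp4 Pcdh7, Dclk1 and Wipi1, and to Cyp26b1 Pik3r3, Dhx35 and Gm8995. Srp72, Polr1e and Arl1 were closest to Aldh1a1, Rassf9, Zfp451 and Dctn5 to Aldh1a3, and Pigb, Rlim and Pdk3 to Crabp2. The lowest of these 27 values was 0.978, for Pdk3 with Crabp2. Pearson's r takes no account of the size of a change. Pepd had a log2 fold change of 0.73 against 2.44 for Aldh1a2, and Gm17334 one of -2.99 against -1.21 for Dhrs3.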

How the data were processed

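PolyA RNA of EpCAM-selected primary cholangiocytes from WT and PLD mice (3 libraries each, grouped by the titles in the labels) was sequenced on a BGISEQ-500, per the labels' protocols. The authors deposited 1 table of raw read counts per gene and library, made with featureCounts 1.6.0 on mm10 and the GENCODE vM25 annotation, per the file headers, whose command names no strand, pairing or multi-mapping option. The submitters' processing notes also name STAR 2.7.4a, SAMtools 1.12 and DESeq2 1.26.0, without settings. Gene IDs were given symbols from GENCODE vM21, which matched 55141 of 55401 IDs. No member shared exon bases with another gene.

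Counts were analysed with edgeR 4.0.16 in R 4.3.3: filterByExpr by group, TMM factors, quasi-likelihood F test of PLD against WT, and Benjamini-Hochberg adjustment over all 15334 tested genes with a threshold of 0.05. Levels are TMM-normalised CPM, divided by exon kilobases where genes are compared. SEs of log2 fold changes were derived from the F statistic. Reads per 100 Epcam reads and shares per length were compared by two-sided exact permutation tests over libraries, which cannot go below p = 0.1. The fit was tested on simulated counts. Libraries of 1 group differed beyond counting noise (chi-square per degree of freedom 9.72 to 63.9), so none was a copy of another. This check cannot tell separate mice from separate preparations of the same mouse.

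Named genes were all 9 members, up to 5 tested genes with the smallest p of each pathway list, the 6 receptor genes, Aldh1a7, the defining markers of each cell type, and the 3 genes most like each member among those whose log2 CPM averaged 3 or more. The members, lists and rule were chosen with earlier results of these data known. A further gene of the pathway was left out of the lists and is not reported here. Alternatives were DESeq2 1.42.0, limma-voom (limma 3.58.1), other scaling factors and filters, a minimum change of 2-fold, a length correction, a replicate block, other reference genes and leaving out each library.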

Additional observations from a re-analysis of the deposited data

How the results depend on the processing

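Under a minimum change of 2-fold (edgeR's glmTreat), 626 genes were higher and 1650 lower in PLD, of the members 1 was higher (Aldh1a2) and 2 lower (Rbp4 and Cyp26b1), and of the other pathway genes 0 were higher and 4 lower. With limma-voom 3 members were lower, since Aldh1a3 missed the threshold. The other tools, scalings, filters and the length correction each left 4 members higher and 4 lower. When 1 library was left out, 3 to 4 members were higher and 3 to 4 lower, and 0 to 1 was higher per 100 Epcam reads without overlap. In the fits that left out 1 library the log2 fold change of Crabp2 ranged from -0.48 to 0.09. That of Rara ranged from -0.10 to 0.06 and that of Adgre1 from -0.88 to 0.08, so the sign of each could turn. With the length correction Crabp2 was at -0.51. Per 100 Epcam reads the log2 difference of Cyp26a1 ranged from -0.29 to 0.33; it was 0.16 per 100 Krt8 reads, and that of Aldh1a2 was -0.98 per 100 Krt19 reads. After each group's mean log2 CPM was taken off, what was left in same-numbered libraries correlated with r = 0.156, 0.0363 and 0.0613. Differently numbered pairs ran from -0.123 to 0.122, so the numbers were not taken to pair the libraries. A replicate block gave 3920 genes higher and 4242 lower, with 4 members in each direction and 9 and 17 of the other pathway genes. Depth limits Cyp26a1, Crabp2 and Rxrg most.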
